A study of Mus musculus with 18 samples.

Results

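The genes around Dlg1 on mouse chromosome 16 were examined in sorted intestinal stem cells with and without Dlg1. A gene was taken when its GENCODE M21 annotation overlapped positions 21663443 to 41875129 of build GRCm38, that is Dlg1 and 10 Mb on each side, and when it had at least 10 counts in at least 4 libraries. Of 396 annotated genes in this window, 298 were found in both count tables and 134 had enough counts. The rule left out 8 of them by name: Dlg1, Arhgap31, Pak2, Gsk3b, Etv5, Hes1, Sst and Rfc4. Claudin genes were barred too, but none had enough counts. The remaining 126 genes, of 15563 with as many counts in the whole series, lay 41 before and 85 after Dlg1. Of these, 99 were protein coding, 24 were predicted gene models and 85 had at least 10 counts in every library. The count minimum was met in the knock-out libraries alone by 1 gene (Hcls1) and in the wild-type libraries alone by 0.

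The study compared mice of 8 to 16 weeks, wild type or with a conditional knock-out of Dlg1, and both genotypes received tamoxifen, the drug that induces recombination in such designs. Intestinal stem cells were collected by flow cytometry, 5000 to 10000 per library, either 48 hours (called 2 days here) or 14 days after the injection. There were 4 wild-type and 4 knock-out libraries at 2 days and 5 of each at 14 days. The Cre driver, the strain background, the breeding history and the identity of the control mice (with or without Cre) are not given in the labels, nor is it said whether each library came from its own animal, so p-values measure the spread between these libraries, which may in part be technical.

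Dlg1 encodes a scaffold protein of the lateral membrane that organises epithelial polarity. When an allele is made by gene targeting, the flanking chromosome of the strain it was made in travels with it, and each generation of backcrossing shortens that stretch by recombination. Genes beside a targeted locus can therefore carry other alleles in mutants than in controls, and such differences are present from conception, whatever the time after induction. The question put to the 126 genes was whether their RNA differed with genotype more often than that of other genes, whether a difference depended on distance from Dlg1, and whether it was the same at both times. The deposited tables hold counts and no sequence variants, so the alleles carried by each library were not tested.

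Libraries held 14.8 to 40.5 M counts at 2 days and 11.1 to 15.7 M at 14 days. The 7 crypt base stem cell markers summed to 4305 to 5635 CPM (counts scaled to a common library size) over the libraries at 2 days and to 2175 to 3362 CPM at 14 days. Dlg1 itself (ENSMUSG00000022770, chromosome 16, 31663443 to 31875129, plus strand) was at 48.3 to 69.5 CPM in wild type and 38.4 to 58.0 CPM in knock-out at 2 days, and at 60.5 to 85.8 and 41.8 to 101 CPM at 14 days. The groups overlapped at both times, with log2 fold changes of -0.38 ± 0.19 (SE; edgeR quasi-likelihood test, adjusted p = 0.866) and -0.17 ± 0.22 (adjusted p = 0.957). A count over the whole gene does not show a deleted exon, so this checks the labels only weakly. Wild-type library 3 at 14 days stood apart, with 5650 CPM over 9 enterocyte markers and 26.3% of its counts in mitochondrial genes. Total counts and the mitochondrial share peaked in wild-type library 1 of the 2 day table. Predicted gene models took 48.1% of counts in the fifth 14 day knock-out library.

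As a set, the neighbours of Dlg1 had a median change near that of all genes. Their share with an unadjusted p under 0.05 was above that of all genes at both times and averaged, a difference that was not tested. At 2 days it was near that of all genes, at 5.71% beside 4.91%. Among genes with a mean log2 CPM of 3 or more it was lower at 2 days (3.95% beside 5.45%) and higher at 14 days (6.1% beside 4.16%). The main contrast averaged the genotype effect over both times in 1 fit of all 18 libraries, and 125 of the 126 genes could be tested in it. None had an adjusted p under 0.05 by edgeR, where 0.00647% of all 15458 genes did (1 gene, Arhgap31). Arhgap31 itself lies within 10 Mb of Dlg1 and was left out by name, in a rule chosen with earlier results of these data known. On the rest of chromosome 16 and on other chromosomes 0 genes passed. By DESeq2 1 neighbour passed, Hspbap1, where 0.0453% of all genes did, and 14 had an unadjusted p under 0.05, where 6.86% of all genes did. At an unadjusted p under 0.05, edgeR marked 11 of 125 neighbours, 8.80%, where 5.81% of all genes were marked. These were Timmdc1, Tctex1d2, Hcls1, Wdr5b, Iqcg and Slc51a with higher RNA in the knock-out (3.24% of all genes were marked higher) and Hspbap1, Senp2, Muc20, Ccdc50 and Gm6611 with lower RNA (2.57% of all genes). Hcls1 met the count minimum in knock-out libraries alone, so its direction was in part set by that minimum, and without it 10 genes were marked, 5 in each direction. On the rest of chromosome 16 the marked share was 7.08%, 25 of 353 genes.

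The median log2 fold change of the neighbours was -0.02, beside 0.01 over all genes. Their median size of change, regardless of sign, was 0.19, beside 0.17 over all genes and 0.16 on the rest of chromosome 16. The 95% interval lay within a 2-fold change for 81 of the 125 neighbours, 64.8%, and for 66.8% of all genes. Among the 80 neighbours with a mean log2 CPM of 3 or more, 5 were marked, 6.25%, beside 5.52% of all genes at that level, and the interval lay within a 2-fold change for 91.2%, beside 96.5%. Weakly expressed genes held the widest estimates: across the 125 neighbours, mean level and size of change had a Spearman correlation of -0.49, a description over genes that share the same libraries.

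**Figure D1:**
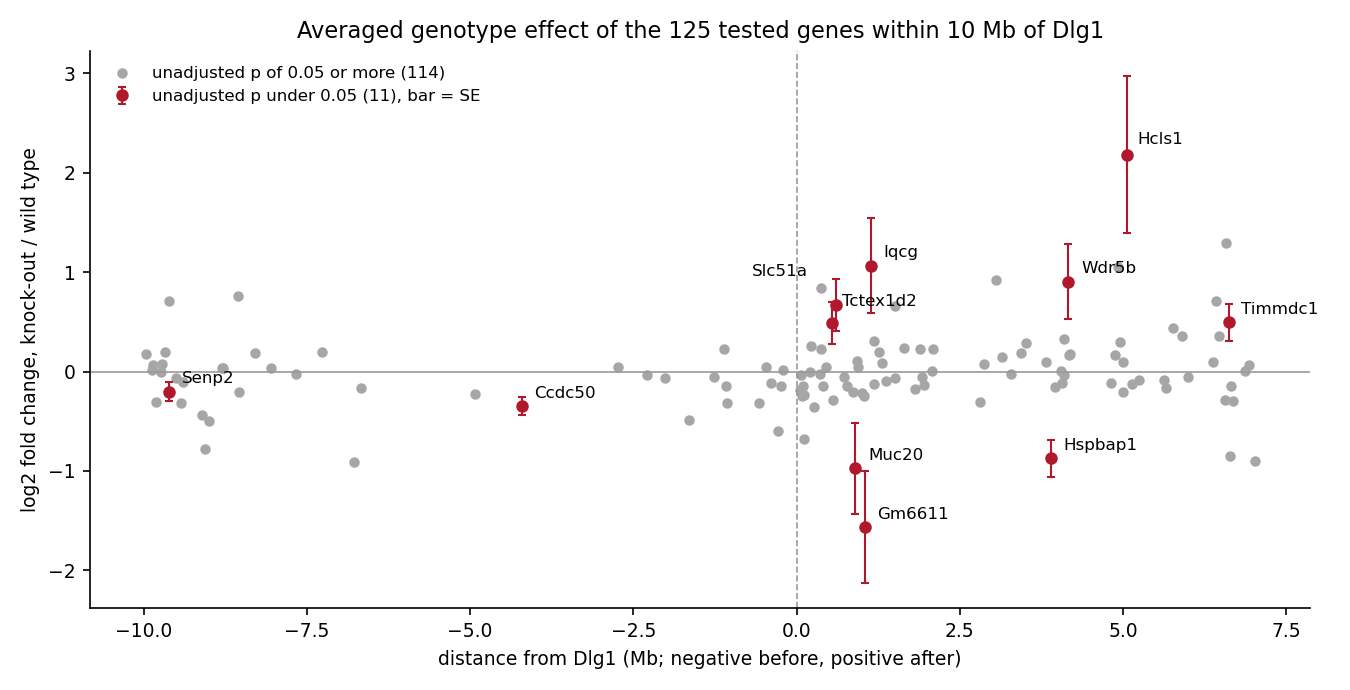
Averaged log2 fold change (knock-out over wild type, vertical axis) of each of the 125 tested neighbours against its distance from the nearer end of Dlg1 in Mb (horizontal axis, negative before the gene), with the 11 genes of unadjusted p under 0.05 in red and bars for their standard error. Hspbap1 lies at -0.87 and 3.90 Mb after Dlg1, and the 10 nearest named genes on each side lie between -0.36 and 0.26.

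On each side of Dlg1 the 10 nearest genes that are not predicted models were followed, to 2.28 Mb before and 0.40 Mb after it. In the averaged contrast 0 of these 20 had an unadjusted p under 0.05, beside 5.81% of all genes. At 2 days and 14 days 17 of the 20 could be tested and 0 were marked, beside 4.91% and 3.99% of all genes. So few genes cannot tell 0 from these shares. The marked genes Tctex1d2, Slc51a and Muc20, at 0.54, 0.60 and 0.90 Mb after Dlg1, lay beyond the 10 followed there. Within 1 Mb after Dlg1 3 of 23 genes were marked, 13%, and within 1 Mb before it 0 of 6. Before Dlg1 the first gene is Bdh1, the mitochondrial 3-hydroxybutyrate dehydrogenase of ketone metabolism, with an averaged log2 fold change of 0.01 ± 0.16. It is followed by Ppp1r2, an inhibitor of protein phosphatase 1 (-0.11 ± 0.13), and Acap2, an Arf6 GTPase-activating protein (0.04 ± 0.11). Xxylt1, a xylosyltransferase that extends sugars on Notch repeats, was at -0.32 ± 0.17, and Lsg1, a GTPase of 60S ribosome maturation, at -0.15 ± 0.12. Farther out, Fam43a was at -0.31 ± 0.45, Tmem44 at 0.23 ± 0.47, the cation-transporting ATPase gene Atp13a3 at -0.06 ± 0.09 and Opa1, which fuses inner mitochondrial membranes, at -0.07 ± 0.10.

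After Dlg1 the order was similar. Ncbp2, the small subunit of the nuclear cap-binding complex, was at -0.03 ± 0.16, and Senp5, a protease that removes SUMO, at -0.24 ± 0.13. Pigz and Pigx, genes of GPI-anchor synthesis, were at -0.19 ± 0.73 and -0.00 ± 0.21. Fbxo45, a substrate receptor of a ubiquitin ligase, was at -0.02 ± 0.12, and the WD-repeat gene Wdr53 at 0.23 ± 0.21. The ends of the range were Nrros (-0.36 ± 0.48), which anchors latent TGF-beta, and the centrosomal gene Cep19 (0.26 ± 0.20). Negative signs were more common in the averaged contrast, 15 of 20, but at 2 days there were 9 negative and 8 positive, and at 14 days 8 and 9.

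Distance from Dlg1 did not order the effects. In the averaged contrast 3 of 29 genes within 1 Mb were marked (10.3%), 2 of 25 from 1 to 2.5 Mb (8.00%), 3 of 24 from 2.5 to 5 Mb (12.5%) and 3 of 47 from 5 to 10 Mb (6.38%). At 2 days these shares were 4.17%, 4.76%, 14.3% and 2.56%, where 4.91% of all 13031 genes were marked. At 14 days they were 8.70%, 8.70%, 4.17% and 10.3%, where 3.99% of all 13991 genes were marked. The highest share fell in a different bin at each time, and each bin's count rests on 1 to 4 genes. Spearman correlations of distance with the size of the change were -0.06 at 2 days (105 genes), 0.08 at 14 days (109 genes) and 0.00 in the averaged contrast (125 genes). By side, 2 of 41 genes before Dlg1 (4.88%) and 9 of 84 after it (10.7%) were marked. The difference between the sides was not tested.

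**Figure D2:**
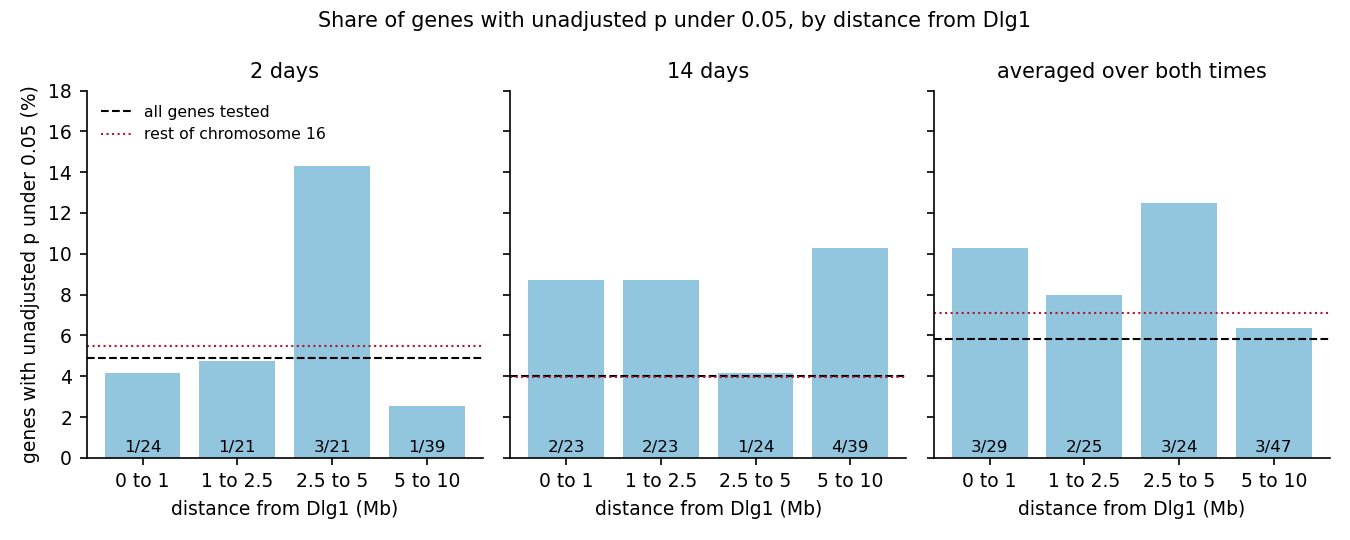
Share of neighbours with an unadjusted p under 0.05 (vertical axis, percent) by distance from Dlg1 in Mb (horizontal axis), for the averaged contrast and each time, with the number marked and tested in each bar. The lines give the share over all genes and over the rest of chromosome 16, and no bin is highest in all 3 comparisons.

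Hspbap1 had the smallest p of the neighbours in the averaged contrast, and it was known from earlier results of these data, so its values are a description. It encodes a JmjC-domain protein that binds the small heat shock protein Hsp27. The gene (ENSMUSG00000022849, chromosome 16, 35770375 to 35828477, plus strand) starts 3.90 Mb after the end of Dlg1. Its promoter is shown because its level was lower in the knock-out at both times, and that of Ccdc50, 4.21 Mb before Dlg1, because it had the next smallest p. Both run from 250 bases before to 50 after the RefSeq start (GRCm38.p6), on the plus strand, Hspbap1 at chr16:35770136-35770435 and Ccdc50 at chr16:27388706-27389005. Capitals mark CACGTG, the palindromic E-box, in the first and CCGCCC, the reverse complement of the GC box GGGCGG, in the second.
Hspbap1: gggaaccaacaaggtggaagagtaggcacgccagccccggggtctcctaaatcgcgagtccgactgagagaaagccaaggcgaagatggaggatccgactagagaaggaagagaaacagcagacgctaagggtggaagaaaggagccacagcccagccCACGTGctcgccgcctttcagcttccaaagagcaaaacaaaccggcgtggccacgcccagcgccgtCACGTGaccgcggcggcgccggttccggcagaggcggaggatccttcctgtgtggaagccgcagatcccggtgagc
Ccdc50: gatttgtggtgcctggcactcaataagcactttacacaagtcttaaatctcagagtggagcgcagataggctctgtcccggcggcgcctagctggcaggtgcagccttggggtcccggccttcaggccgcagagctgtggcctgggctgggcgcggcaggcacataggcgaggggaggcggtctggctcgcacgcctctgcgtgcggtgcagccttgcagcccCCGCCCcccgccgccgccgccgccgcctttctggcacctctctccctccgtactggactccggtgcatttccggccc
The Hspbap1 promoter held 26 CG dinucleotides and 62.3% G and C, and that of Ccdc50 24 and 67.7%, beside medians of 7 and 52.7% over 32817 promoters. CACGTG occurred 2 times in the first and was found in 7.15% of all promoters. This motif was added to the search after the sequence was seen. GGGCGG, on either strand, was found in 35.6% of all promoters. TATAAA (13.6% of all promoters) and CCAAT (37.4%) were absent from both windows on both strands. A match is a description of the reference sequence and says nothing of the alleles in these mice.

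At 2 days Hspbap1 was at 6.01, 6.44, 5.64 and 5.67 CPM in the wild-type libraries and at 3.08, 3.42, 1.99 and 1.41 CPM in the knock-out libraries. The groups did not overlap, and the knock-out mean was 41.9% of wild type on the fitted scale. At 14 days the wild-type libraries were at 21.5, 16.4, 15.1, 13.5 and 14.3 CPM and the knock-out libraries at 12.7, 11.9, 11.5, 10.7 and 10.8 CPM. Again the groups did not overlap, and the fitted level was 71.6% of wild type. These values rest on 23 to 166 counts per library at 2 days and 76 to 354 at 14 days. The stem cell marker sum at 2 days was also lower in most knock-out libraries, at 5074, 4357, 4305 and 4523 CPM, than in wild type, at 5028, 5584, 5635 and 5581 CPM. At 14 days its ranges overlapped, at 2423 to 3362 CPM in wild type and 2175 to 3089 CPM in knock-out. Its part in the Hspbap1 and Ccdc50 values was not tested. In bulk RNA, fewer cells of a type that expresses the gene and less RNA per cell cannot be told apart.

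The log2 fold change of Hspbap1 was -1.25 ± 0.41 at 2 days (edgeR adjusted p = 0.866), -0.48 ± 0.18 at 14 days (adjusted p = 0.957) and -0.87 ± 0.18 in the averaged contrast, with a 95% interval of -1.26 to -0.49. The averaged difference had an unadjusted p of 1.06e-04 and an adjusted p of 0.408 by edgeR's test, while DESeq2 gave -0.86 ± 0.17 with an adjusted p of 0.00200. Over 27 alternatives for this contrast, edgeR and limma voom adjusted p-values ran from 0.128 to 0.966 and the DESeq2 value was the 1 of 91 Hspbap1 values from all contrasts that passed. Its effect was larger in size at 2 days, by 0.75 ± 0.37 (unadjusted p = 0.0532, adjusted p = 0.815), a difference that did not pass. The 14 day columns carry a letter, B or J, in their names. Within B (2 libraries per genotype) the log2 fold change was -0.64 and within J (3 per genotype) -0.37.

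Among 12480 genes tested at both times, 0.0160% had every knock-out library below every wild-type library at both. These were 2 genes, Hspbap1 and Arhgap31, both on chromosome 16 within 10 Mb of Dlg1. The rule of the set names both and was chosen with earlier results of these data known. Their place in the window is therefore a description and no separate evidence. The opposite pattern was met by 0.00801%, the 1 gene Slc50a1 on chromosome 3. Arhgap31 was left out of the set by name, so Hspbap1 was 1 of the 100 neighbours tested at both times. A predicted antisense gene, Gm26838 (35805947 to 35808946, minus strand), shares 430 exon bases with Hspbap1, which is 4.56% of the exon bases of Hspbap1 and 47.2% of its own. It had 0 to 14 counts per library, so even all of its reads would be few beside those of Hspbap1 in most libraries. Whether counting used strand is not given in the sources used here.

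**Figure D3:**
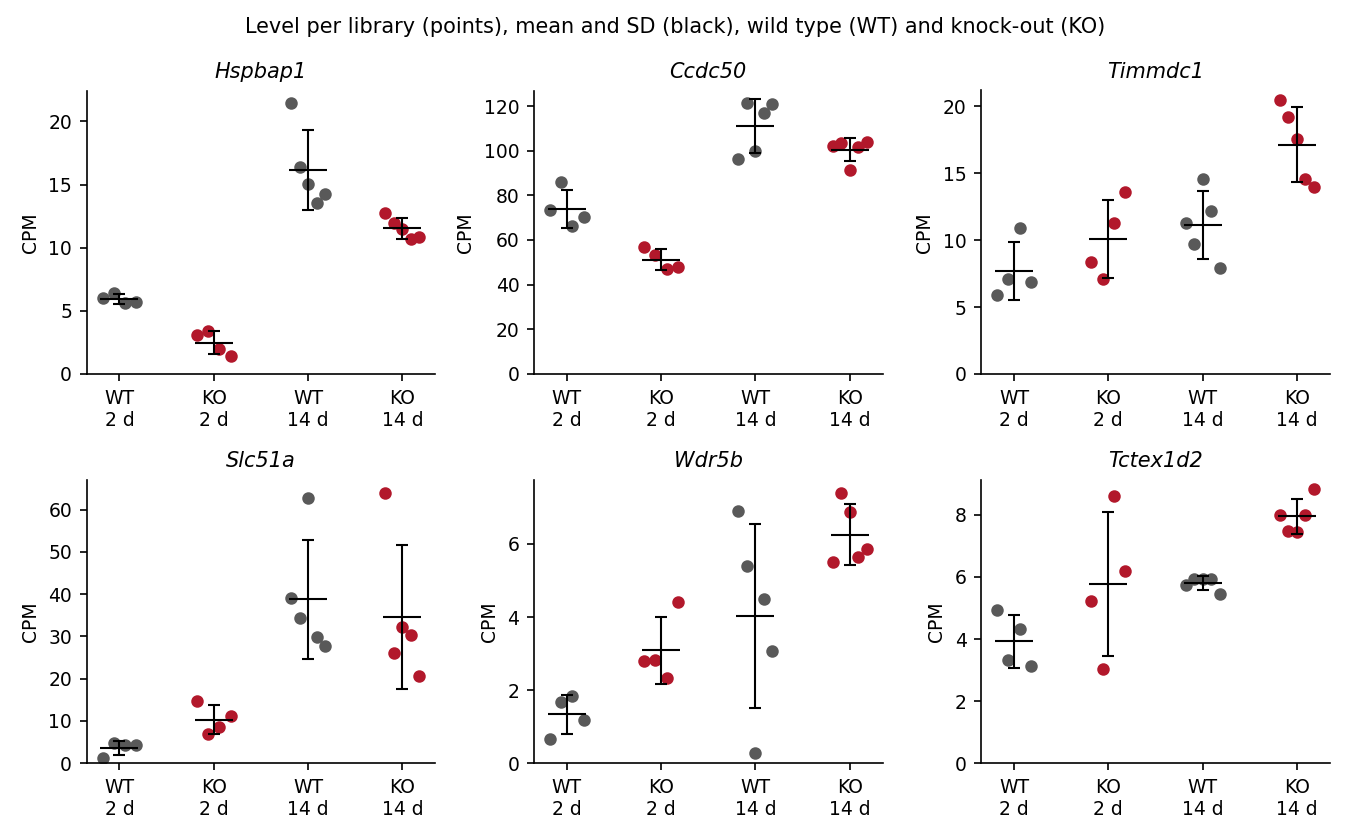
Level in CPM (vertical axis) of 6 neighbours in each of the 18 libraries, by genotype and time (horizontal axis), with the mean and SD of each group in black. Hspbap1 lies at 1.41 to 3.42 CPM in knock-out and 5.64 to 6.44 in wild type at 2 days, and at 10.7 to 12.7 and 13.5 to 21.5 at 14 days.

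The other neighbours with small p-values are the extremes of the set, and none passed after adjustment. Ccdc50 encodes a ubiquitin-binding protein that acts on EGF receptor turnover. At 2 days it was at 73.3, 86.0, 66.3 and 70.5 CPM in wild type and at 56.7, 53.4, 47.1 and 47.8 CPM in knock-out, without overlap. At 14 days wild type spanned 96.3 to 121 CPM and knock-out 91.3 to 104 CPM, and the groups overlapped. Its log2 fold change was -0.53 ± 0.15 at 2 days, -0.14 ± 0.12 at 14 days and -0.35 ± 0.09 averaged (95% interval -0.54 to -0.16, edgeR adjusted p = 0.829).

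Timmdc1, an assembly factor of respiratory complex I, had a log2 fold change of 0.63 ± 0.21 at 14 days, with 11.3, 9.68, 14.6, 12.2 and 7.89 CPM in wild type and 20.5, 19.2, 17.5, 14.6 and 14.0 CPM in knock-out. Wild-type library 3 was the highest of its group and overlapped the 2 lowest knock-out libraries. At 2 days the values were 5.94 to 10.9 and 7.07 to 13.6 CPM, and the averaged log2 fold change was 0.49 ± 0.18 (edgeR adjusted p = 0.829). Tctex1d2, a dynein light chain gene, was at 5.45 to 5.95 CPM in wild type and 7.45 to 8.84 CPM in knock-out at 14 days. This was the only neighbour of 109 with all knock-out libraries above all wild-type libraries at 14 days (0.917%, beside 0.272% of all genes). At 2 days its groups overlapped, at 3.13 to 4.92 and 3.03 to 8.62 CPM, and it averaged 0.49 ± 0.21, a mark lost in 3 of 18 fits that left out 1 library.

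Wdr5b, a WD-repeat gene related to the chromatin protein gene Wdr5, was at 0.652, 1.68, 1.84 and 1.19 CPM in wild type and 2.78, 2.81, 2.32 and 4.42 CPM in knock-out at 2 days. At 14 days the wild-type libraries were at 6.91, 5.40, 0.288, 4.48 and 3.07 CPM, the third being far below the rest, and the knock-out libraries at 5.50 to 7.40 CPM. Its log2 fold change was 1.20 ± 0.54 at 2 days and 0.91 ± 0.38 averaged. The unadjusted p at 2 days was 0.05 or more in all 8 fits that left out 1 library, and the averaged one without knock-out library 4 of 2 days. It lies against Fam162a on the opposite strand with shared exon bases, so reads of the pair could have been assigned to either. Senp2, a SUMO protease, averaged -0.20 ± 0.10, with 50.5 to 57.6 against 43.3 to 49.6 CPM at 2 days and overlapping groups at 14 days, and lost its mark in 10 of 18 fits that left out 1 library.

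Slc51a differed between the times more than any other neighbour by p. It encodes the alpha subunit of the basolateral bile acid transporter of enterocytes. At 2 days wild type was at 1.19, 4.80, 4.37 and 4.21 CPM and knock-out at 14.7, 6.93, 8.57 and 11.2 CPM, without overlap. At 14 days wild type was at 39.1, 34.3, 62.7, 29.9 and 27.8 CPM and knock-out at 63.9, 26.1, 32.1, 30.2 and 20.5 CPM, the knock-out range enclosing that of wild type. The log2 fold change was 1.51 ± 0.44 at 2 days and -0.16 ± 0.30 at 14 days, a difference of -1.68 ± 0.53 (edgeR unadjusted p = 0.00425, adjusted p = 0.762). Its averaged mark (0.67 ± 0.26) was lost without knock-out library 1 of either time, the libraries with the highest enterocyte sum of their groups. The 9 enterocyte markers summed to 629, 435, 428 and 476 CPM in the wild-type and 2933, 449, 587 and 988 CPM in the knock-out libraries at 2 days. At 14 days the highest sums, 5650 CPM in wild-type library 3 and 3566 CPM in knock-out library 1, were in the libraries with the highest Slc51a of their groups. The part of enterocyte RNA in the Slc51a values was not tested. Exons of Slc51a overlap those of Pcyt1a on the opposite strand, so reads of the pair could have been assigned to either. At 2 days Pcyt1a was at 37.1 to 44.6 CPM in wild type and 24.3 to 56.9 CPM in knock-out.

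Some low-count genes had large estimates with wide errors. Hcls1, the cortactin relative of blood cells, was at 0 to 0.108 CPM in wild type and 0 to 0.608 CPM in knock-out at 2 days, and at 0 to 0.438 and 0.248 to 2.28 CPM at 14 days, with at most 16 counts in a library. It averaged 2.18 ± 0.79 on the log2 scale, and it could be tested in 14 of the 18 fits that left out 1 library. The leukocyte marker Ptprc spanned 0.0576 to 1.78 CPM in wild type and 0.111 to 1.96 CPM in knock-out at 2 days, and 0.528 to 3.65 and 0.337 to 5.55 CPM at 14 days. All 9 immune markers had counts in every group, at 321 to 1507 CPM in sum. Without Cd74 they summed to 9.61 to 58.5 CPM in wild type and 5.79 to 9.23 CPM in knock-out at 2 days, lower in the knock-out. At 14 days they summed to 5.51 to 9.33 CPM (median 6.95) and 4.63 to 13.5 CPM (median 10.2). Their part in the Hcls1 values was not tested.

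Iqcg, which encodes a calmodulin-binding protein of cilia and flagella, was at 0.117 to 0.752 CPM in wild type and 0.617 to 2.0 CPM in knock-out at 14 days. Its log2 fold change was 1.76 ± 0.56 there and 0.38 ± 0.76 at 2 days, and its averaged mark was lost in 8 of 18 fits that left out 1 library. Exons of Iqcg overlap those of Lrch3 on the opposite strand, so reads of the pair could have been assigned to either. Muc20, a membrane mucin, was at 23.2, 9.36, 3.63 and 7.99 CPM in wild type and 2.34, 11.5, 2.43 and 7.00 CPM in knock-out at 2 days. Its exons overlap those of Muc4 on the opposite strand, so reads of the pair could have been assigned to either. Muc4 was at 1394, 643, 439 and 553 CPM in these wild-type and 413, 902, 479 and 552 CPM in these knock-out libraries. At 14 days Muc20 was at 0.767 to 3.17 and 0.172 to 1.85 CPM, so its averaged -0.98 ± 0.45 rests on overlapping groups. Without wild-type library 1 of 2 days it was -0.64, and in 8 of 18 fits that left out 1 library the unadjusted p was 0.05 or more. The predicted gene Gm6611, outside the rule for named genes, averaged -1.56 ± 0.56 with at most 30 counts in a library.

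At 2 days 6 of 105 neighbours had an unadjusted p under 0.05, 5.71%, beside 4.91% of all genes. Wdr5b and Slc51a were higher (2.72% of all genes were), and Igsf11, Fyttd1, Hspbap1 and Ccdc50 lower (2.19%). Igsf11, an immunoglobulin-type adhesion gene, was at 21.9, 13.0, 8.86 and 7.23 CPM in wild type and at 7.57, 6.18, 3.15 and 2.46 CPM in knock-out, with a log2 fold change of -1.39 ± 0.45. Its groups overlapped by 1 library each, and at 14 days it was at 0 to 0.571 CPM and could not be tested. Fyttd1, an mRNA export adaptor, was at -0.40 ± 0.18. Without wild-type library 1 it was at -0.24, and in 7 of 8 fits that left out 1 library its unadjusted p was 0.05 or more. Groups that did not overlap were found for 5 neighbours with lower values (Senp5, Hspbap1, Senp2, Eif4a2 and Ccdc50; 4.76%, beside 1.94% of all genes) and for 3 with higher values (Wdr5b, Slc51a and Cox17; 2.86%, beside 2.03%).

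At 14 days 9 of 109 neighbours were marked, 8.26%, beside 3.99% of all genes. Timmdc1, Iqcg, Smbd1, the long non-coding RNA Lppos and the predicted gene Gm24616 were higher (2.44% of all genes were), and Hspbap1, Pcyt1a, Dgkg and Gm6611 lower (1.55%). Pcyt1a, the rate-limiting enzyme of phosphatidylcholine synthesis, was at -0.41 ± 0.17, and at -0.27 without wild-type library 2, where it was no longer marked. Exons of Pcyt1a overlap those of Slc51a on the opposite strand, so reads of the pair could have been assigned to either. Dgkg, a diacylglycerol kinase, was at -0.55 ± 0.22, and Lppos and Smbd1 were at 0.78 ± 0.32 and 0.78 ± 0.36, each losing the mark in 7 of 10 fits that left out 1 library (Dgkg in 3). Lpp, a LIM-domain protein gene of focal adhesions, was at 173 to 188 CPM in wild type and 150 to 163 CPM in knock-out, and with Hspbap1 it made the 2 neighbours whose knock-out values all lay below wild type (1.83%, beside 0.257% of all genes). The log2 fold change of Lpp was -0.18 ± 0.12 and its unadjusted p was above 0.05. By edgeR 0 genes of either table had an adjusted p under 0.05. By DESeq2 0.0844% of all genes at 2 days and 0.00715% at 14 days did, none of them a neighbour. At an unadjusted p under 0.05 DESeq2 marked 7 neighbours at 2 days, beside 6.22% of all genes, and 9 at 14 days, beside 4.87%.

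These counts at 14 days depended on single libraries. Without wild-type library 3, the one with the high enterocyte sum, 20 of 111 neighbours were marked (18%), but the share over all genes also went up, to 12.2%. Of the 20, 15 were higher and 5 lower in the knock-out, and over all genes too the higher side was the larger, at 8.78% against 3.37%. After adjustment 0 genes of the whole table passed. Without wild-type library 1, 2 or 5 the count was 5, 4 or 5 (4.46%, 3.57% and 4.5%, beside 4.05%, 2.22% and 2.5% of all genes). Without knock-out library 1 or 3 it was 5 (4.42% in both, beside 2.73% and 2.52%). In the averaged contrast, leaving out the same wild-type library 3 gave 22 of 123 (17.9%), beside 9.87% of all genes, and the mitochondrial genes Cox17 and Ndufb4 and the ribosomal protein gene Rpl35a joined the higher side. Rpl35a was at 280 CPM in that library and at 65.1 to 70.7 CPM in the other 4 wild-type libraries, beside 196, 123, 172, 136 and 74.7 CPM in the knock-out. Cox17, the copper chaperone of cytochrome oxidase, was at 43.7 CPM in it, at 11.4 to 18.7 CPM in the other wild-type libraries and at 29.0, 23.4, 32.7, 30.0 and 13.4 CPM in the knock-out. For both genes the wild-type library was the highest of all 10. The knock-out libraries lay above the remaining wild-type libraries, except the fifth for Cox17. The mitochondrial share of counts moved with these levels, at 26.3% in the library, 6.21% to 11.6% in the other wild-type libraries and 24.2%, 13.4%, 17.8%, 17.0% and 7.08% in the knock-out. Its part in the result was not tested. Hspbap1 was among the marked genes in both of these fits.

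Effects at the 2 times were compared over the 100 neighbours tested at both. The times share no library. The sign was the same for 54, of which 28 were lower and 26 higher at both times, beside 48.9% of 12480 genes. The log2 fold changes of the neighbours had a Pearson correlation of 0.25 and a Spearman correlation of 0.27, and over all genes the Pearson correlation was -0.04. It was 0.22 without Hspbap1, 0.35 over the 64 neighbours within 5 Mb, 0.35 over the 80 with a mean log2 CPM of 3 or more and 0.10 over 295 genes of the rest of chromosome 16. These are descriptions over genes that share their libraries.

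**Figure D4:**
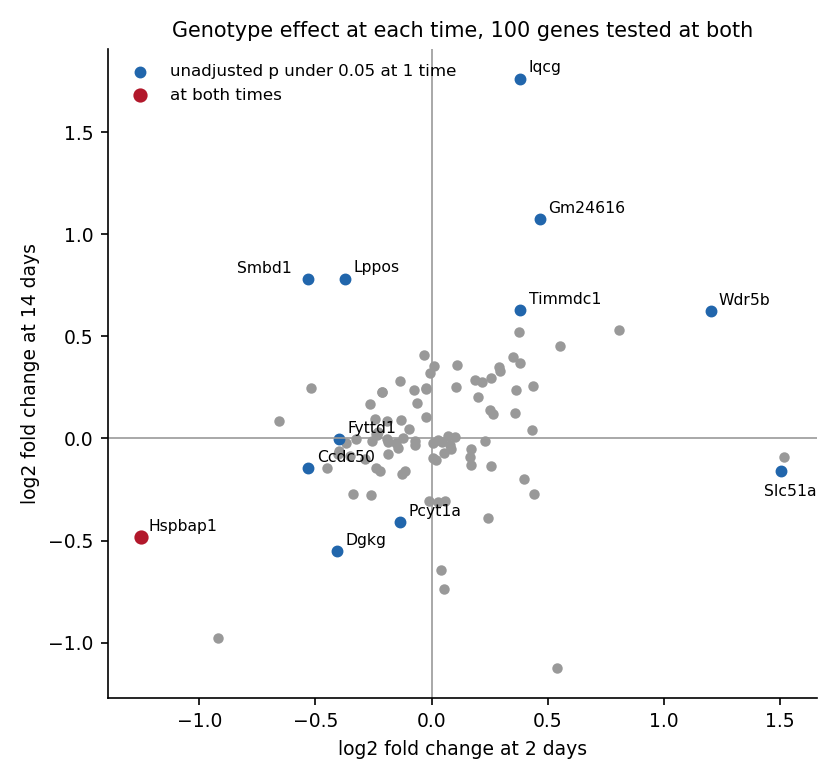
Log2 fold change of the knock-out over wild type at 14 days (vertical axis) against that at 2 days (horizontal axis) for the 100 neighbours tested at both times, with blue for an unadjusted p under 0.05 at 1 time, red for both times and grey for neither. Hspbap1, the only red point, lies at -1.25 and -0.48, and Slc51a at 1.51 and -0.16.

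The difference between the 2 times was itself tested. By edgeR an unadjusted p under 0.05 was found for 3 of 125 neighbours, 2.4%, beside 5.96% of all genes. These were Rnf168, with the more positive effect at 14 days (2.32% of all genes), and Slc51a and the predicted gene D930030I03Rik, with the more negative (3.64%). DESeq2 marked 5, beside 7.11% of all genes. After adjustment 0 neighbours passed by either tool, beside 0 genes by edgeR and 0.0712% by DESeq2. Rnf168, a ubiquitin ligase that marks DNA double-strand breaks, went from -0.52 ± 0.25 at 2 days to 0.25 ± 0.19 at 14 days, a difference of 0.75 ± 0.33. Wild-type library 1 at 2 days had 105 CPM of Rnf168, and the other 3 of that group had 45.6 to 55.5 CPM. Without it the difference was 0.41, and in 5 of 18 fits that left out 1 library the unadjusted p was 0.05 or more.

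By function, 82 of the 126 neighbours were placed in 8 hand-written lists, with Parp14, Dtx3l and Parp9 in more than 1. Of the 11 genes marked in the averaged contrast, 6 were in a list, at most 1 in each. Over all 15458 genes 5.81% were marked, 7874 were positive and 7584 negative. In lists of 7 to 15 tested genes, 0 or 1 marked cannot be told apart from that share. The other 5 (Hspbap1, Ccdc50, Tctex1d2, Iqcg and Gm6611) were among the 44 genes in no list. The most abundant neighbours per length were Muc13, a membrane mucin of the gut surface, at 620 ± 36.6 CPM per kb of exon in wild type at 14 days (SD, n = 5) and 614 ± 71.1 in the knock-out, and the antisense model Gm15564, which varied widely (1249 ± 1287 in wild type). The iron uptake receptor gene Tfrc was at 74.2 ± 3.37 and 83.4 ± 13.5 CPM per kb, and the chaperone gene Dnajb11 at 44.4 ± 4.70 and 47.7 ± 10.2.

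Of 7 genes of translation and RNA, 0 were marked, 1 had a positive and 6 a negative value, and the median log2 fold change was -0.11. Here Eif4a2, an initiation factor helicase, was at -0.20 ± 0.15, Tra2b, a splicing regulator, at -0.11 ± 0.11 and the ribosomal protein gene Rpl35a at 0.31 ± 0.25. Of 12 genes of protein folding and turnover, 1 was marked (Senp2), 4 were positive and 8 negative, with a median of -0.08. Dnajb11 was at 0.03 ± 0.13.

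Of 12 genes of mitochondria and metabolism 1 was marked (Timmdc1), and 9 were positive and 3 negative, with a median of 0.09. Fam162a, a mitochondrial protein gene induced by hypoxia, was at 0.17 ± 0.23. Of 15 genes of membrane transport and traffic 1 was marked (Slc51a), 8 were positive and 7 negative, with a median of 0.04. Tfrc was at -0.06 ± 0.13 and the Golgi tether gene Golgb1 at -0.21 ± 0.15.

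Mucins, adhesion and cytoskeleton gave 14 genes with 1 marked (Muc20), 5 positive, 9 negative and a median of -0.12. Muc13 was at -0.05 ± 0.13, the membrane mucin gene Muc4 at -0.21 ± 0.19 and Lpp at -0.16 ± 0.10. Of 8 signalling genes 0 were marked, 2 were positive and 6 negative, with a median of -0.07, and the xenobiotic receptor gene Nr1i2 was at 0.10 ± 0.12. DNA repair, transcription and chromatin gave 10 genes with 1 marked (Wdr5b), 3 positive, 7 negative and a median of -0.05. The zinc finger factor gene Zfp148 was at -0.06 ± 0.11 and Kpna1, an importin alpha that carries cargo into the nucleus, at -0.03 ± 0.11.

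The immune and interferon list held 7 genes with 1 marked (Hcls1, which met the count minimum through knock-out libraries alone), 4 positive, 3 negative and a median of 0.00. Its most abundant members lie side by side about 4 Mb after Dlg1, and they are Parp14 (-0.16 ± 0.16), the ubiquitin ligase gene Dtx3l (0.00 ± 0.15) and its partner Parp9 (-0.11 ± 0.20), interferon-induced ADP-ribosylation genes. Hspbap1 and these 3 genes lie within 1 Mb of each other, and of the 4 only Hspbap1 was marked. The median over all genes was 0.01.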

How the data were processed

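The authors deposited unnormalized counts of reads for each Ensembl gene, a table for each time. The submitters' processing notes name STAR 2.4.2a, bcl2fastq 2.20.0.422 and build GRCm38, without the counter, annotation or strand setting. Poly(A) RNA was amplified by SmartSeq and tagged with Nextera XT, per the labels' protocols, with no molecular identifiers named. Columns beginning with Dmin at 2 days were read as Dlg1 minus, the knock-out. Names carry no replicate number, so libraries were numbered by table order. The smallest chi-square per degree of freedom between libraries of a group was 27.6, so none was counted as a duplicate.

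Each time was tested with edgeR 4.0.16 (TMM, filterByExpr with a minimum count of 10, quasi-likelihood F-test, Benjamini-Hochberg over all genes) in R 4.3.3. The averaged effect and the difference between times came from 1 fit of all 18 libraries. SE is the size of the log2 fold change over the square root of F. On simulated counts with 200 changed genes the averaged test recovered 80% of 2-fold and 98% of 4-fold changes. These counts followed the dispersion trend. With 200 changed genes the adjusted threshold is easier to pass than in the data, where 1 gene passed, so recovery in the data may be lower. Alternatives were DESeq2 1.42.0, limma 3.58.1 voom, other scaling and filters, Y-linked transcripts as a covariate, and leaving out libraries. The genes named were Hspbap1, the 10 smallest p per comparison, the 10 nearest to Dlg1 on each side and the 3 most abundant per function list, predicted models apart. The set, the lists and the tests were chosen with earlier results of these data known. RefSeq promoters matched 96 of the 126 genes. Exons of 45 overlap another gene, so their counts are uncertain.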

Additional observations from a re-analysis of the deposited data

Results flagged for a closer look

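In each group of libraries, 10 of the genes around Dlg1 with the smallest p-values were examined for 1 library far from the rest by Dixon's criterion, 40 groups in all. Chance alone gives about 1 in 20 groups, and 4 were found. Ccdc50 in knock-out library 3 at 14 days was at 91.3 CPM, below the other 4, which were at 102 to 104 CPM. Hcls1 in knock-out library 5 at 14 days was at 2.28 CPM, above the other 4 at 0.248 to 0.771 CPM. Slc51a in wild-type library 1 at 2 days was at 1.19 CPM, below the other 3 at 4.21 to 4.80 CPM. Slc51a in knock-out library 1 at 14 days was at 63.9 CPM, above the other 4 at 20.5 to 32.1 CPM.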

How the results depend on the processing

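No paired analysis was possible because the columns carry no replicate numbers. Hspbap1 kept the direction of the main fit in all 91 values under an alternative. That direction was negative at 2 days, at 14 days and averaged, and positive for the difference between times. Its groups did not overlap at either time, so leaving out 1 library could hardly turn the negative signs. Its averaged log2 fold change ran from -0.97 to -0.78 over the 18 fits that left out 1 library and from -0.90 to -0.85 over the 9 other settings, and DESeq2 (-0.86, adjusted p = 0.00200) was the setting under which it passed. Leaving out 1 library moved it from -1.45 to -1.06 at 2 days, from -0.54 to -0.36 at 14 days and from 0.57 to 0.96 for the difference. Of 494 values for 22 results on single genes, 0 turned direction and 108 no longer had an unadjusted p under 0.05. The 22 were followed because their unadjusted p was under 0.05 in the main fit of the same data, so turned directions were unlikely.

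Counts of neighbours at an unadjusted p under 0.05 moved with the setting, as did the share of all genes. The 2 day count of 6 became 10 in the fit of all 18 libraries (8.00%, beside 8.38% of all genes). The 14 day count of 9 became 4 in that fit (3.20%, beside 2.39%) and 2 with the letter J alone (1.83%, beside 1.90%). The averaged count of 11 became 6 with a minimum count of 50, where fewer genes were tested (6.25%, beside 5.53%). The count of 3 for the difference between times became 5 by DESeq2, by RLE scaling, with the letter as a term and with no filter (3.97% to 4.0%, beside 7.11%, 6.18%, 5.86% and 6.24% of all genes), and with no filter 1 gene (Slc51a) passed after adjustment. The averaged count after adjustment, 0, became 1 by DESeq2. Leaving out 1 library gave 4 to 9 at 2 days (3.06% to 6.46% of all genes), 4 to 20 at 14 days (2.22% to 12.2%), 8 to 22 averaged (4.34% to 9.87%) and 2 to 7 for the difference (4.68% to 8.16%). The neighbours' share was above that of all genes in 6 of 8, 10 of 10, 18 of 18 and 0 of 18 of these fits, which share most of their libraries. The count for the difference moved to 5 or more without knock-out library 2 or 3 or wild-type library 2 or 3 at 2 days, or wild-type library 2 or 3 at 14 days. No count after adjustment left 0 in these fits. The causes were not tested beyond the number of genes or libraries in each fit. The letter term and the letters alone were chosen after seeing the data. So were 2 fits without both wild-type library 1 of 2 days and knock-out library 5 of 14 days. On simulated counts 2-fold changes were recovered in 39% of cases at 2 days and in 65% at 14 days, and 4-fold changes in 89% and 98%. The changed genes were drawn from those with a mean count of 50 or more, and no simulated library was made to stand apart. The number of planted changes also eased the adjusted threshold, which 0 genes passed by edgeR at either time, so recovery in the data may be lower. Recovery by count level was not tested, and the 2 day libraries were the deeper ones.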
